A study of Rattus norvegicus with 20 samples.

Results

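The cytosolic ribosomal protein genes are those whose RNAs encode the protein parts of the large and small subunits of the cytosolic ribosome. They were chosen by symbol alone: a probe set had to carry exactly 1 symbol in the platform's annotation, and that symbol had to be Rpl or Rps followed by a number, Rplp followed by 0 to 2, or Rpsa, which leaves out the kinases and the mitochondrial ribosomal proteins. This gave 55 probe sets for 48 of the 14217 genes with 1 symbol, and the probe set of the highest mean log2 signal over all arrays stood for its gene. The 48 genes were 29 of the large subunit, 13 of the small subunit and 6 close copies (paralogs) of ribosomal protein genes. Ribosomal proteins that no probe set names alone are not among the 48. A further 36 probe sets list a symbol of the same pattern among several symbols, and these cannot be assigned to 1 gene.

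Blood came from male Wistar rats given a single oral dose of 1200 mg/kg acetaminophen (APAP), an analgesic that injures the liver when overdosed. All were fasted for 12 h before the dose and 2 h after it. Of 35 dosed rats, the sub-group called susceptible held the 5 with the highest serum alanine transaminase (ALT) at 24 h and the resistant sub-group the 5 with the lowest, so the sub-groups were defined after dosing. Predose blood was drawn 1 week before the dose and postdose blood at 24 h, which gave 4 groups of 5 arrays: resistant predose (R), resistant postdose (RA), susceptible predose (S) and susceptible postdose (SA). The labels give the retro-orbital plexus as the site of both bleeds, whereas the methods give the inferior vena cava for the postdose bleed. No array held RNA of a rat given the vehicle, so dosing, fasting, the week between bleeds and the bleed itself cannot be told apart in a postdose change. Red cells were lysed before RNA was extracted. In RNA of whole blood, fewer cells of a type and less RNA per cell cannot be told apart either.

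Each ribosome joins a small subunit, which reads the messenger RNA, to a large subunit, which forms the peptide bonds. Most of the proteins are needed in equal numbers, and their messengers are among the most abundant in most cells. In mammals these messengers begin with a run of pyrimidines, the 5′ terminal oligopyrimidine (TOP) motif, through which the kinase complex mTORC1 and the RNA-binding protein Larp1 set their translation together. In blood the family is known for Diamond-Blackfan anaemia, in which the loss of 1 copy of one of several ribosomal protein genes impairs the making of red cells.

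The motif that ties these genes together can be read at their start sites. A promoter sequence from RefSeq (GRCr8 assembly) was matched by gene ID for 41 of the 48 genes, and the bases from the annotated start were searched, on the gene's own strand, for a C followed by at least 4 bases that are each C or T. In 11 of the 41 genes (26.8%) the annotated first base opened such a run, against 881 of 33469 RefSeq promoters (2.63%). When the run could begin up to 5 bases to either side of the annotated start, 20 of 41 genes (48.8%) and 17% of all promoters held one. The runs that opened at the start were 5 to 10 bases long and lay in 9 of 24 large-subunit genes, 2 of 11 small-subunit genes and 0 of 6 paralogs. A match is a description of letters, and an annotated start can differ by a few bases from the one used in blood. The windows below run 5′ to 3′ on the gene's strand, from 10 bases before the annotated start to 20 bases from it, with the pyrimidine run in capitals. Rplp0, Rpl19, Rps15 and Rps3a show the run in genes of high signal, and Rpl28 and Rpl39 show it in genes on which results below turn. Rps13 and the paralogs Rps27l and Rpl3l show starts at which no such run opens, though in Rps13 one opens within 5 bases after the start.
Rplp0, chr12:46718371-46718400, minus strand: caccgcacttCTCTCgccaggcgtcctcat
Rpl19, chr10:83519054-83519083, plus strand: ccagcaagctCTTTCCTTTCgctgctgcgt
Rps15, chr7:10068096-10068125, minus strand: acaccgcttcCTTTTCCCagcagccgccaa
Rps3a, chr2:173827023-173827052, minus strand: gtacttccgcCCTTTTggctctcagagcgg
Rpl28, chr1:78083513-78083542, minus strand: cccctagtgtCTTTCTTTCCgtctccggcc
Rpl39, chrX:121195877-121195906, minus strand: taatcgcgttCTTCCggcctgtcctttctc
Rps13, chr1:180009641-180009670, minus strand: ttcctacctcgttctctctttgcttccaga
Rps27l, chr8:76443648-76443677, plus strand: ttcatttgtcattatttgtggtgtccagag
Rpl3l, chr10:14258436-14258465, plus strand: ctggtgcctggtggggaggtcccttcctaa

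Signals are given on the log2 scale, with the median probe set of every array set to a signal of 1000, which is 9.97 on this scale. By the probe set kept for each gene, the family fell into 2 sets with an empty stretch between them. For 38 genes the mean log2 signal lay between 17.56 (Rpl21) and 18.86 (Rps29), and by mean signal 37 of these ranked from 2 to 144 among 31042 probe sets, with Rpl21 at 176. For the other 10 genes it lay between 6.06 (Rpl39l1) and 14.19 (Rpl7l1). The line between the sets was drawn after the signals had been seen. The brightness of a probe set depends on its probes as well as on its RNA, so signals of different genes are not compared as amounts of RNA.

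**Figure D1:**
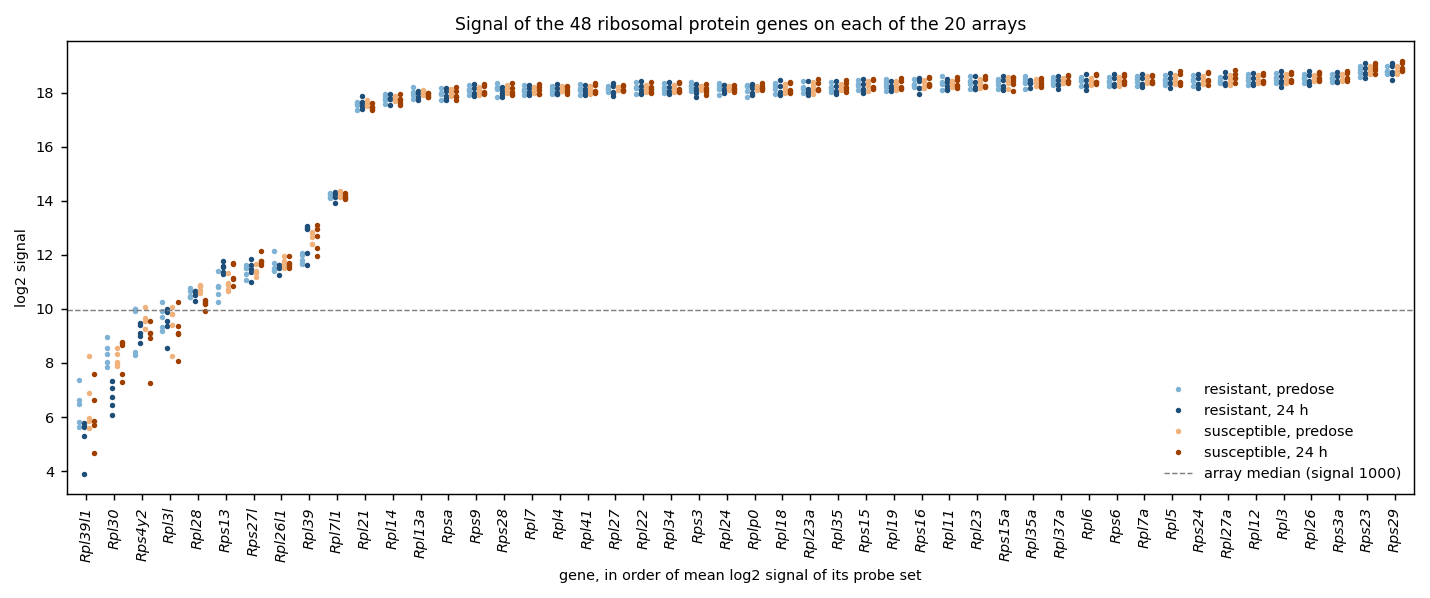
Log2 signal of each of the 48 genes (x axis, in order of mean signal) on each of the 20 arrays, coloured by group, with the array median as a dashed line. The 38 genes on the right lie in a narrow band with means of 17.56 to 18.86, while the 10 on the left run from 6.06 to 14.19.

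The brightest probe set of the family was that of Rps29, a small-subunit protein, which ranked 2 of 31042 by mean signal. Its log2 signals were 18.99, 18.82, 18.81, 18.79 and 18.70 on the R arrays, 19.11, 18.71, 18.49, 18.78 and 18.99 on RA, 18.82, 18.74, 18.95, 18.99 and 18.70 on S, and 19.17, 18.85, 18.83, 19.09 and 18.93 on SA. The 4 groups overlapped throughout. Rps23, which lies at the decoding centre, ranked 5 with a mean log2 signal of 18.84. The next by mean log2 signal were Rps3a (18.56), Rpl26 (18.55), Rpl3 (18.53), which lies near the peptidyl transferase centre, and Rpl12 (18.50). The 10 genes of lower signal were the 6 paralogs together with Rpl30, Rpl28, Rps13 and Rpl39, which are core parts of the ribosome. Among the paralogs, Rpl39l1 and Rpl3l are known from testis and from striated muscle. The mean log2 signal was 9.21 for Rps4y2, 9.45 for Rpl3l, 11.51 for Rps27l, 11.64 for Rpl26l1 and 14.19 for Rpl7l1.

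The lowest signals were set against 3 probe sets for the bacterial trp genes, which have no target in rat RNA. Their highest log2 signal on an array lay between 5.13 and 8.12 over the 20 arrays. Rpl39l1 was at or below the highest trp signal of its own array on 15 of 20 arrays, Rpl30 on 4 and Rps4y2 on 1, and the other 45 genes on none. Of the 4 arrays for Rpl30, 3 were of the RA group and 1 was of the SA group.

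Whether the ribosomal protein genes changed after APAP was asked first in resistant rats, as RA minus R. Of the 48 genes, 1 was higher (Rps13) and 1 was lower (Rpl30) at a limma adjusted p under 0.05. Of all 30747 probe sets tested, 2.51% were higher and 2.60% were lower at that threshold, so that neither share of the family stood above that of the array as a whole. The median log2 difference was -0.04 over the 48 genes and -0.01 over all probe sets tested. None of the 38 genes of high signal passed the threshold, and none had an unadjusted p under 0.05.

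Rpl30, a large-subunit protein, gave log2 signals of 8.03, 7.86, 8.32, 8.96 and 8.56 on the R arrays and 6.45, 7.33, 7.07, 6.76 and 6.09 on the RA arrays. All 5 postdose arrays lay below all 5 predose arrays. The log2 difference was -1.61 (95% interval -2.26 to -0.95, SE 0.31, limma adjusted p = 0.00455), a ratio of 0.328. Groups of 5 arrays did not overlap in this comparison for 6.76% of all probe sets tested. This probe set lay below the array median on every array, and on 3 of the 5 RA arrays it was at or below the highest trp signal, so the size of the fall is uncertain. The 2 probe sets that list Rpl30 among several symbols had mean log2 signals of 18.24 and 18.43, and their log2 differences were -0.01 (95% interval -0.25 to 0.22) and -0.05 (-0.30 to 0.20). Neither of these brighter probe sets showed the fall. It is therefore given for the dimmer probe set, not for Rpl30 RNA as a whole.

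Rps13, a small-subunit protein, gave log2 signals of 10.85, 11.40, 10.28, 10.80 and 10.57 on the R arrays and 11.55, 11.58, 11.76, 11.30 and 11.36 on the RA arrays. Of the R arrays 1 lay within the range of the RA arrays and 4 lay below it. The log2 difference was 0.73 (95% interval 0.30 to 1.16, SE 0.20, limma adjusted p = 0.0465), a ratio of 1.66. The call was lost, with adjusted p between 0.0518 and 0.133, when any 1 of 15 arrays was left out, namely R 1, 3, 4 or 5, RA 1 to 5, S 2 to 5, or SA 1 or 4. A brighter probe set that lists Rps13 among several symbols (mean log2 signal 18.32) had a log2 difference of -0.06 (95% interval -0.30 to 0.18). The rise is therefore given for the dimmer probe set alone.

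Rpl39, which lines the exit tunnel of the large subunit, did not pass the threshold in resistant rats, and its log2 signals were 11.99, 11.72, 11.67, 11.81 and 12.09 on the R arrays and 13.07, 13.01, 12.07, 12.95 and 11.61 on the RA arrays. The postdose arrays were split, 3 at 12.95 or above and 2 within or below the predose range. The log2 difference was 0.68 (95% interval 0.12 to 1.25, limma adjusted p = 0.175). Without the fifth RA array it was 0.92, with an adjusted p of 0.0391.

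In susceptible rats (SA minus S) 0 of the 48 genes were higher and 1 was lower (Rpl28) at a limma adjusted p under 0.05, against 3.86% of all probe sets higher and 2.80% lower. The median log2 difference was 0.01 over the 48 genes and 0.01 over all probe sets tested. Again none of the 38 genes of high signal passed the threshold, and none had an unadjusted p under 0.05.

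Rpl28, a large-subunit protein, gave log2 signals of 10.84, 10.83, 10.89, 10.71 and 10.59 on the S arrays and 10.30, 10.24, 9.92, 10.33 and 10.17 on the SA arrays. The 2 groups did not overlap, as was so for 6.83% of all probe sets tested in this comparison. The log2 difference was -0.58 (95% interval -0.81 to -0.35, SE 0.11, limma adjusted p = 0.00343), a ratio of 0.668. In resistant rats the same probe set gave 10.77, 10.47, 10.67, 10.45 and 10.43 predose and 10.65, 10.65, 10.68, 10.28 and 10.54 postdose, ranges that overlapped, with a log2 difference of 0.00 (95% interval -0.23 to 0.23). The brighter probe set that lists Rpl28 among several symbols (mean log2 signal 18.30) had a log2 difference of 0.06 (95% interval -0.17 to 0.29) in susceptible rats. The fall is therefore given for the dimmer probe set, not for Rpl28 RNA as a whole.

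Rps27l, a paralog of Rps27 known as a target of p53, gave log2 signals of 11.35, 11.42, 11.17, 11.32 and 11.68 on the S arrays and 11.79, 12.13, 11.79, 11.71 and 11.64 on the SA arrays. The highest S array lay above the lowest SA array, and the other S arrays lay below all SA arrays. The log2 difference of 0.43 (95% interval 0.10 to 0.75) did not pass the threshold (limma adjusted p = 0.118). In resistant rats the log2 difference of Rps27l was 0.05 (95% interval -0.27 to 0.38).

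**Figure D2:**
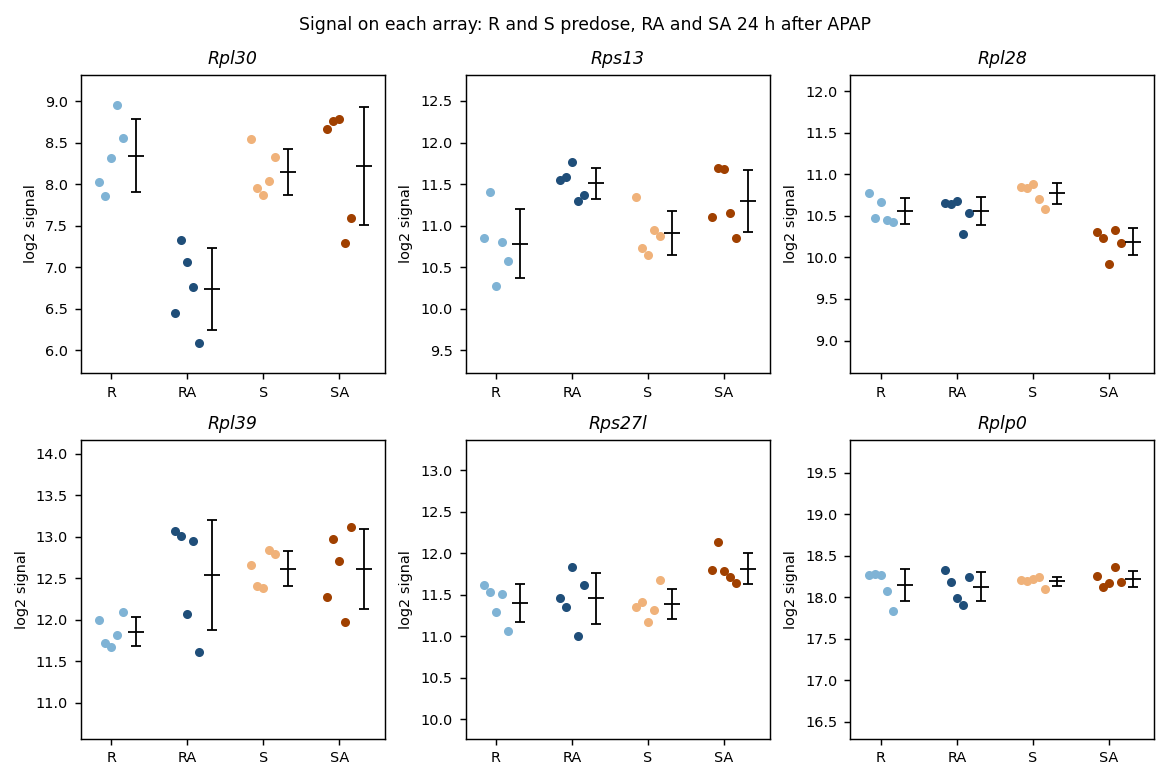
Log2 signal (y axis, of the same span in each panel) on the 5 arrays of each group for Rpl30, Rps13, Rpl28, Rpl39, Rps27l and, as a gene of high signal, Rplp0, with the mean and SD in black. Rpl30 on RA lies below R, Rpl28 on SA lies below S, and Rplp0 overlaps across the 4 groups.

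Whether the change after APAP differed between the sub-groups was tested as (SA minus S) minus (RA minus R). For 0 of the 48 genes did it pass the threshold, and 0% of all probe sets did. Rpl30 had the smallest unadjusted p of the family (0.00132), with a log2 difference of changes of 1.68 (95% interval 0.75 to 2.61, limma adjusted p = 0.342). For Rpl28 the log2 difference of changes was -0.58 (95% interval -0.91 to -0.25, unadjusted p = 0.00157, limma adjusted p = 0.349). The next 4 by unadjusted p were Rpl39 (-0.69), Rps27l (0.37), Rpl21 (-0.21) and Rps13 (-0.35). The falls of the Rpl30 (resistant rats) and Rpl28 (susceptible rats) probe sets are therefore not shown to differ between the sub-groups at this threshold.

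After APAP the sub-groups were also compared directly, as SA minus RA. Of the 48 genes 0 passed the threshold, against 0.143% of all probe sets. Rpl30 gave 8.66, 8.76, 8.79, 7.30 and 7.60 on the SA arrays, of which only the fourth lay within the range of the RA arrays. Its log2 difference was 1.48 (95% interval 0.83 to 2.14, limma adjusted p = 0.0687). The call depended on the setting, since the limma adjusted p was 0.0256 after quantile normalization and 0.0245 without the fourth SA array. It was 0.0428 when genes were fitted as means of their probe sets, which left the values of Rpl30, with 1 probe set, unchanged. For Rpl28 the log2 difference was -0.37 (95% interval -0.60 to -0.14, limma adjusted p = 0.233). Groups of 5 did not overlap in this comparison for 2.23% of all probe sets.

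Before dosing (S minus R, on the 10 predose arrays) 0 of the 48 genes passed the threshold, against 0.00329% of the 30416 probe sets tested. The gene with the smallest p was Rpl39. Its 5 S arrays gave log2 signals of 12.66, 12.40, 12.39, 12.84 and 12.80, all above the highest R array at 12.09. The log2 difference of 0.76 (95% interval 0.45 to 1.07, unadjusted p = 3.04e-04) did not pass after adjustment (limma adjusted p = 0.615), and predose groups did not overlap for 0.529% of all probe sets. After APAP the SA arrays gave 12.28, 12.98, 12.70, 11.98 and 13.12 for Rpl39. Of these 1 lay within the range of the S arrays, 2 above it and 2 below it, and the log2 difference between SA and RA was 0.07 (95% interval -0.49 to 0.63).

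**Figure D3:**
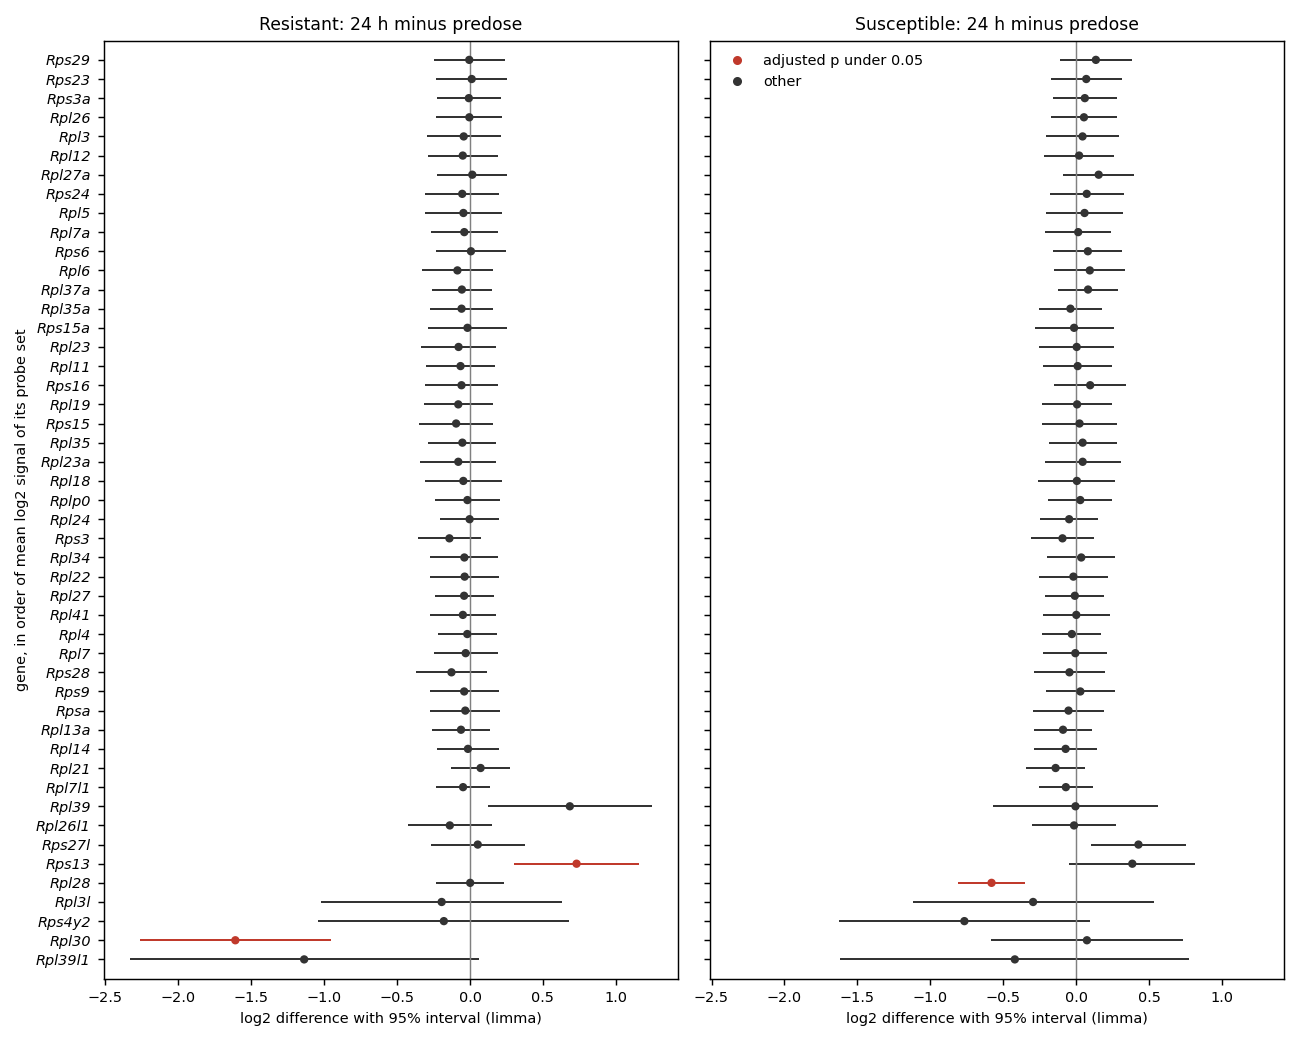
Log2 difference (x axis) with its 95% interval from limma for each of the 48 genes, in order of mean log2 signal, after APAP in resistant rats on the left and in susceptible rats on the right, in red where the adjusted p was under 0.05. The 38 genes of high signal lie between -0.14 and 0.15, and the 3 red points (Rpl30 and Rps13 on the left, Rpl28 on the right) are among the 10 genes of lower signal.

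With arrays scaled to the median, the size of any change in signal of the 38 genes of high signal was bounded as follows. In resistant rats their log2 differences after APAP ran from -0.14 (Rps3) to 0.07 (Rpl21), and their 95% intervals all lay between -0.37 and 0.28, ratios of 0.773 to 1.21. In susceptible rats the differences ran from -0.14 (Rpl21) to 0.15 (Rpl27a), and the intervals lay between -0.35 and 0.39, ratios of 0.787 to 1.31. For the difference of changes the intervals lay between -0.50 and 0.52, for SA minus RA between -0.36 and 0.40, and for S minus R between -0.28 and 0.34. These bounds enclose the intervals of all 38 genes under that scaling, and the median half-width of a single gene's interval was 0.24 in each sub-group. The bounds depended on the scaling. After quantile normalization the intervals lay between -0.27 and 0.29 in resistant rats. In susceptible rats they lay between -0.59 and 0.17 (ratios of 0.665 to 1.13), and for the difference of changes between -0.74 and 0.23. The SD within groups was 0.12 to 0.19 for these 38 genes (median 0.16), against a median of 0.23 over the 15257 tested probe sets with a mean at or above the array median.

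Rplp0, the base of the ribosomal stalk that binds elongation factors, gave log2 signals of 18.27, 18.28, 18.27, 18.08 and 17.83 on R, 18.33, 18.18, 17.99, 17.91 and 18.24 on RA, 18.21, 18.19, 18.22, 18.24 and 18.10 on S, and 18.26, 18.12, 18.17, 18.36 and 18.19 on SA. It is widely used as a reference gene in PCR. Its 4 groups overlapped, with log2 differences of -0.02 (95% interval -0.24 to 0.20) in resistant and 0.03 (-0.19 to 0.25) in susceptible rats. Rplp1 and Rplp2, the other stalk proteins, had no probe set with 1 symbol. Rps6, the small-subunit protein that the S6 kinases phosphorylate, had log2 differences of 0.01 (95% interval -0.23 to 0.24) in resistant and 0.08 (-0.16 to 0.32) in susceptible rats. Rpsa, also known as the laminin receptor, had -0.03 (-0.27 to 0.21) and -0.05 (-0.29 to 0.19), and its 3 probe sets all missed the threshold.

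Rps3, which lies where messenger RNA enters the small subunit, had the lowest log2 difference of the bright genes in resistant rats. Its log2 signals were 18.39, 18.30, 18.26, 18.17 and 18.08 on R and 18.32, 18.12, 18.01, 17.86 and 18.19 on RA. The ranges overlapped, and the log2 difference of -0.14 (95% interval -0.36 to 0.07) did not pass (limma adjusted p = 0.549). Rpl21, a large-subunit protein, had a log2 difference of 0.07 (95% interval -0.13 to 0.28) in resistant and -0.14 (-0.35 to 0.06) in susceptible rats, with limma adjusted p of 0.788 and 0.480.

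Of the genes known to be mutated in Diamond-Blackfan anaemia, 9 were among the 48 (Rpl5, Rpl11, Rpl18, Rpl26, Rpl27, Rpl35a, Rps24, Rps28 and Rps29). None passed the threshold in any of the 5 comparisons. Their log2 differences lay between -0.13 (Rps28) and 0.00 (Rpl26) in resistant rats and between -0.05 (Rps28) and 0.13 (Rps29) in susceptible rats. Rpl5 and Rpl11, which bind the p53 regulator MDM2 together with 5S RNA, had log2 differences of -0.05 (95% interval -0.31 to 0.22) and -0.07 (-0.30 to 0.17) in resistant rats. In susceptible rats these were 0.06 (-0.21 to 0.32) and 0.01 (-0.23 to 0.25).

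The paralogs passed the threshold in none of the 5 comparisons, and their intervals were wide where the signal was low. Rpl39l1 gave log2 signals of 6.63, 7.36, 6.48, 5.63 and 5.80 on R and 5.29, 5.77, 5.61, 5.66 and 3.90 on RA. These ranges overlapped near the level of the trp probe sets, and the log2 difference of -1.14 had a 95% interval of -2.33 to 0.06. The log2 differences in resistant and susceptible rats were -0.18 and -0.77 for Rps4y2, -0.19 and -0.30 for Rpl3l, -0.14 and -0.02 for Rpl26l1, and -0.05 and -0.07 for Rpl7l1, which takes part in large-subunit assembly. Rpl7l1 had the tightest bounds of the paralogs in resistant rats, with a 95% interval of -0.23 to 0.14.

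The changes after APAP were also set beside the pyrimidine run. Of the genes of high signal with a promoter sequence, the 9 with the run at the annotated start had log2 differences of -0.10 to -0.01 in resistant rats (median -0.04) and -0.07 to 0.06 in susceptible rats (median 0.02). The 23 without it had -0.14 to 0.07 (median -0.05) and -0.14 to 0.15 (median 0.01). These ranges overlapped and were not tested against each other.

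From array to array the 38 genes of high signal moved together. The median log2 signal over them ran from 18.06 to 18.53 on the 20 arrays, and was 18.29 ± 0.15 in R, 18.22 ± 0.18 in RA, 18.30 ± 0.11 in S and 18.31 ± 0.17 in SA (mean ± SD, n = 5). The lowest array was the third of RA and the highest the fourth of SA. Over the 703 pairs of these genes, the median correlation of their deviations from the group means over the 20 arrays was 0.92. All these genes share each array's scale, and the correlation depended on it. The median correlation was 0.86 when arrays were centred on the probe sets at or above the median, and 0.22 after quantile normalization. The spread of the array medians also narrowed under quantile normalization, to 18.19 to 18.33, and under the centring it was 18.06 to 18.46. Quantile normalization gives every array the same distribution of values, so it removes much of any shared movement of top-ranked probe sets by design. Its lower correlation and narrower spread therefore do not show where the movement came from.

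**Figure D4:**
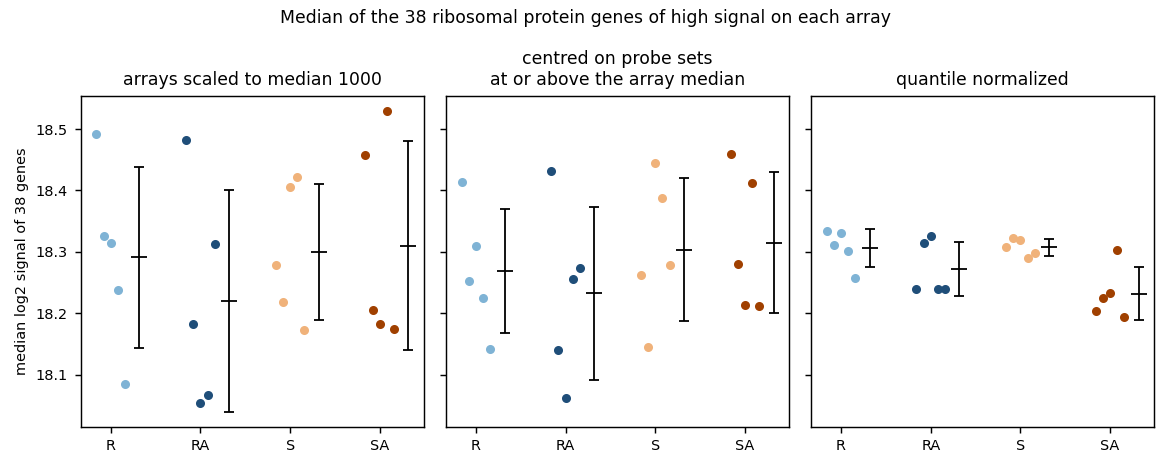
Median log2 signal of the 38 genes of high signal (y axis) on each array by group, with mean and SD in black, when arrays were scaled to a median of 1000, centred on probe sets at or above the median, or quantile normalized. The arrays spread from 18.06 to 18.53 on the left and from 18.19 to 18.33 on the right.

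The scaling also set the sign of the small shifts in susceptible rats. With arrays scaled to the median, 24 of the 38 genes had a log2 difference above 0 and 14 below 0 (median 0.02). When centred on the probe sets at or above the median, 25 were above 0 and 13 below (median 0.02). After quantile normalization 3 were above 0 and 35 below (median -0.08, lowest -0.34), and 8 had an unadjusted p under 0.05, while 0 passed after adjustment. In resistant rats 34 of 38 were below 0 when scaled to the median 27 of 38 after quantile normalization and 24 of 38 when centred on the probe sets at or above the median (medians -0.04, -0.02 and -0.01). Because the sign turned under quantile normalization, no common direction is given for the family in susceptible rats. The 3' to 5' signal ratio of the actin control probe sets is a measure of RNA integrity. The log2 of this ratio ran from 0.77 to 0.85 in R, 0.66 to 0.91 in RA, 0.82 to 0.95 in S and 0.67 to 0.91 in SA. Its part in these shifts was not tested.

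Markers of white cell types moved after APAP, whereas none of the ribosomal protein genes of high signal passed the threshold. Of 11 natural killer cell markers 9 rose in resistant and 9 in susceptible rats, among them the receptor gene Ncr1 (log2 differences of 1.70 and 1.64). Of 11 neutrophil markers 3 rose and 0 fell in resistant rats and 5 rose and 1 fell in susceptible rats, and the receptor gene Cxcr2 rose by 1.48 and 2.21 on the log2 scale. Of 7 B cell markers 1 was lower postdose in resistant rats and 4 were lower in susceptible rats. Of 16 T cell markers 1 was lower in each sub-group. The summed linear signal of the neutrophil markers ran from 530995 to 766608 in R, 856730 to 1051840 in RA, 556580 to 714138 in S and 876933 to 1256260 in SA. That of the natural killer cell markers ran from 225412 to 384305 in R, 470017 to 678394 in RA, 237851 to 310738 in S and 397642 to 641506 in SA. In both lists the postdose range of the sum lay above the predose range in each sub-group. Such a sum is set mostly by the brightest markers of its list. For neutrophils these were S100a9 and S100a8, with mean log2 signals of 18.65 and 17.80, and Csf3r came next at 16.05. Among 10 monocyte markers 1 rose in resistant rats, and 2 rose and 2 fell in susceptible rats. None of 9 platelet or 11 erythroid markers passed in either sub-group. Beside these counts of markers, 2.51% of all probe sets tested were higher and 2.60% lower in resistant rats. In susceptible rats 3.86% were higher and 2.80% lower. The part of cell composition in the changes of Rpl30, Rps13 and Rpl28 was not tested.

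The machinery around the ribosome was described from lists of other genes. Of 13 translation factors and related genes whose messengers are known to carry the TOP motif, none passed in resistant rats, and Hnrnpa1, an RNA-binding protein, fell by 0.47 on the log2 scale in susceptible rats (limma adjusted p = 0.0165). Of all probe sets tested, 2.80% were lower in susceptible rats. The median log2 difference of the translation factor list was -0.12 in resistant and -0.11 in susceptible rats. Rack1, a signalling protein of the small subunit that lies outside the symbol pattern, had log2 differences of -0.07 (95% interval -0.29 to 0.15) and -0.06 (-0.29 to 0.16).

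Of 43 genes of ribosome assembly, 0 rose and 3 fell in resistant rats, where 2.51% and 2.60% of all probe sets did so, namely Sdad1 (log2 difference -1.06, limma adjusted p = 7.49e-04), Gnl3, the nucleolar protein nucleostemin (-0.57), and Nip7 (-0.53). In susceptible rats 3 fell, Sdad1 (-0.75), Ncl, the nucleolar protein nucleolin (-0.38), and Nip7 (-0.35), and 1 rose, Bysl (0.49), against 2.80% and 3.86% of all probe sets. The median log2 difference of the list was -0.17 in resistant and -0.09 in susceptible rats. Of 13 genes of RNA polymerase I and its factors, which transcribe ribosomal RNA, Polr1f fell in resistant rats (-0.68, limma adjusted p = 0.00941), and none passed in susceptible rats, with list medians of -0.13 and -0.11.

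Of 23 genes of mTORC1 and translational control none passed in resistant rats. In susceptible rats 2 rose, Max (0.48) and Mxi1 (0.51), both partners in the Myc network, and 1 fell, the mTOR inhibitor Deptor (-0.70). Larp1 had log2 differences of -0.20 (95% interval -0.41 to 0.01) in resistant and 0.05 (-0.16 to 0.26) in susceptible rats, and neither passed. Of 73 mitochondrial ribosomal protein genes, which belong to the separate ribosome of that organelle, 1 rose and 1 fell in resistant rats, and 2 rose and 1 fell in susceptible rats. Beside the counts of both lists, 2.51% of all probe sets tested rose and 2.60% fell in resistant rats. In susceptible rats 3.86% rose and 2.80% fell. Mrps6 rose by 1.14 on the log2 scale in both, with limma adjusted p of 6.87e-04 and 5.65e-04. None of the genes in these lists passed for the difference of changes or before dosing.

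**Figure D5:**
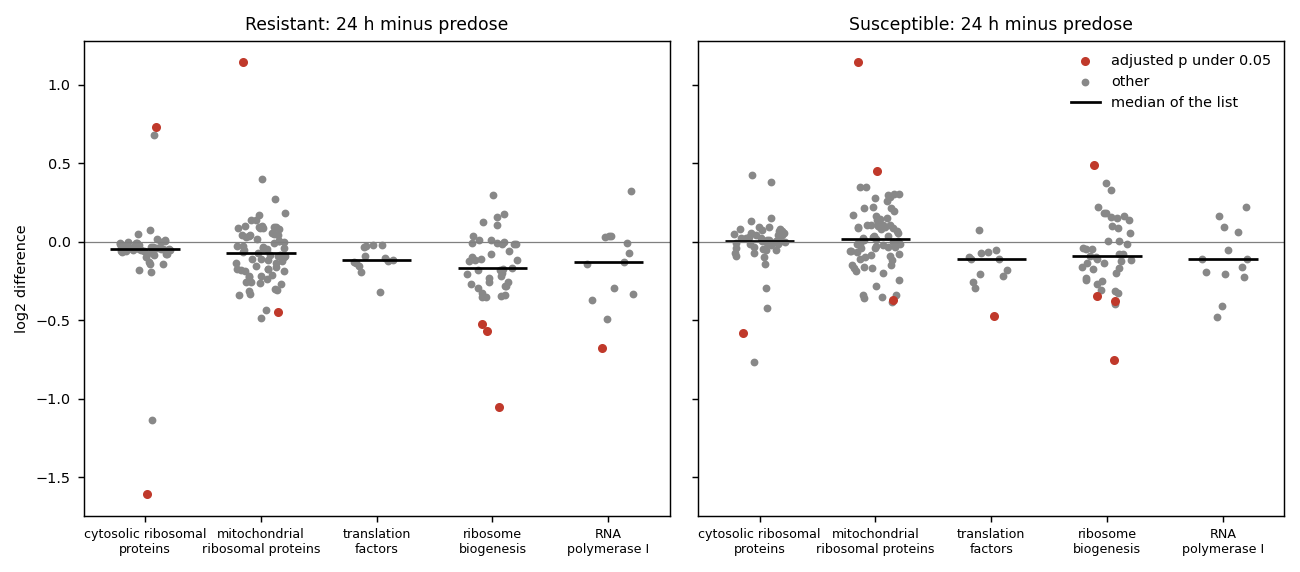
Log2 difference after APAP (y axis) of each gene of 5 lists, resistant rats on the left and susceptible rats on the right, with the list median as a black line and genes at an adjusted p under 0.05 in red. The medians of the cytosolic ribosomal protein genes are -0.04 and 0.01, and Mrps6 is the highest point in both panels at 1.14.

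A gene's other probe sets gave no further call. Of the 48 genes 42 had 1 probe set, 5 had 2 (Rpl3, Rpl7, Rpl7l1, Rpl14 and Rps24) and Rpsa had 3, and none of these further probe sets passed in any comparison. Among the 36 probe sets with several symbols, 31 had a mean log2 signal above 17, as did the 38 genes, and 0 passed in any of the 5 comparisons, with log2 differences of -0.16 to 0.55 in resistant and -0.21 to 0.37 in susceptible rats. With 1 probe set for each of the 111 symbols that follow the pattern alone or among several symbols (79 distinct probe sets), 0 passed in either sub-group after APAP.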

How the data were processed

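RNA of 20 blood samples was hybridised to Affymetrix rat genome arrays, 1 array a sample. The deposited table holds 1 linear intensity per probe set and array, with array medians of 187 to 223. Per the methods, intensities were normalized per chip to a median of 1000, and the summary software is not given in the sources used here. Here 57 control probe sets were set aside, the other 31042 were brought to a median of 1000 on every array, and log2 was taken. Probe sets under 100 on all arrays of a comparison were left out (30747 remained, 30416 predose). Linear models were fitted by lmFit and moderated by eBayes (limma 3.58.1, R 4.3.3), with Benjamini-Hochberg adjustment over all probe sets tested and a threshold of 0.05. The 20 arrays share 1 spread per probe set, except before dosing, where the 10 predose arrays were fitted alone. The rats gave blood both predose and postdose, and the fit treats these arrays as separate. P-values measure the spread between arrays of these rats, and precision is limited by how many arrays there are.

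The members and lists were chosen with earlier results of these data known. Named by rule were members past the threshold, the 6 brightest and 6 dimmest, the stalk proteins, Rpsa, Rps6, the paralogs, the Diamond-Blackfan genes, Rack1, the 6 with the smallest p for the difference of changes, and genes of other lists past the threshold. Rps3, Rpl27a, Larp1, Rpl19 and Rps15 (start sites), and Rpl7 and Rpl14 (further probe sets) lie outside this rule and were named after their values or sequences were seen. Equal replicate numbers are not said to be 1 rat. Deviations of same-numbered arrays correlated between -0.01 and 0.02 for R and RA, and between -0.03 and 0.05 for S and SA. Those of differently numbered arrays correlated between -0.05 and 0.06, and between -0.07 and 0.05. Arrays were therefore not paired. The fit was tested on simulated data. Scaling, filters, probe set choice, the arrays fitted, the test and single arrays were varied. Plots used matplotlib 3.10.9 in Python 3.11.15.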

Additional observations from a re-analysis of the deposited data

Results flagged for a closer look

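In 2 of 196 groups of 5 arrays tested, 1 array stood far from the other 4, where chance alone is set to mark about 1 group in 20. Rpl39l1 on the fifth RA array had a log2 signal of 3.90, against 5.29 to 5.77 on the other 4, and its gap to the nearest array was 0.743 of the group's range. Rps4y2 on the second SA array had a log2 signal of 7.25, against 8.91 to 9.56 on the other 4, with a gap of 0.718 of the range. The critical value was 0.71. Both probe sets are among the 10 of lower signal.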

How the results depend on the processing

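The fall of the Rpl30 probe set in resistant rats passed under every left-out array (limma adjusted p 0.00233 to 0.0167). So did that of the Rpl28 probe set in susceptible rats (0.00224 to 0.0122). The rise of the Rps13 probe set rested on the setting. In resistant rats the count of higher genes was 0 with the replicate block (the replicate number as a block, Rps13 adjusted p = 0.141), 0 with only the compared arrays fitted (0.0950), 0 by the methods' test at its p and fold change or after adjustment, and 0 to 1 with single arrays left out. Without the fifth RA array the 1 gene higher was Rpl39 in place of Rps13. The count of lower genes in resistant rats was 0 under the stricter filter, which leaves Rpl30 untested, and 2 by the methods' test at p and fold change. In susceptible rats the count of lower genes was 0 by that test. With probe sets of several symbols included, an alternative chosen after seeing the data, the counts were 0 higher and 0 lower in resistant and 0 lower in susceptible rats. Between the sub-groups postdose the count was 1 (Rpl30) after quantile normalization, on gene means and by the methods' test at p and fold change. It was 0 to 1 with single arrays left out. The replicate block changed no other call. Of 284 values of single genes under alternatives, 263 kept their side of the threshold, 17 lost it, 4 gained it and 0 reversed. Most of the results so varied had not passed in the main fit, so keeping a side often meant not passing. The methods' test and the probe sets of several symbols are not among the 284. The family medians moved by less than the spread between arrays (SD 0.15) under every alternative run. That spread was wider than the medians themselves, -0.04 to 0.07 in the main fit, so a change of sign could pass. After quantile normalization the medians in susceptible rats, of the difference of changes and of SA minus RA turned to -0.08, -0.07 and -0.05. As deposited, the median in susceptible rats turned to -0.03. The cause of these moves was not tested. Signals near the trp probe sets limit Rpl30 and Rpl39l1.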
